A study of Rattus norvegicus with 2 samples.

Results

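The rat genes for facilitative and sodium-coupled glucose transporters were followed in A7r5, a smooth muscle line derived from embryonic rat aorta. The genes were Slc2a1, Slc2a2, Slc2a3, Slc2a4, Slc2a5, Slc2a8, Slc2a13, Slc5a1 and Slc5a2. They were found by their symbols in the annotation of the array, which gave 9 genes of the 10411 that the array names, read by 12 of the 12783 probe sets assigned to a single gene. A probe set is a group of short oligonucleotides on the array that together give 1 reading of a transcript. The GLUT1 group was infected with an adenovirus carrying the human GLUT1 cDNA, and the control group with the empty adenovirus. Per the labels, both infections ran for 72 h at a multiplicity of infection of 10, with the cells in medium of 5.5 mM glucose. The labels give a multiplicity of 1 as 100 virus particles per cell. Each group was 1 RNA pool from 3 days of isolation, read on 1 array. Cultures in high glucose, which the design also names, are not analysed here. The promoter that drives the human cDNA and the share of cells infected are not stated in the labels. There was no replicate, so no difference below has a test, a p-value or a standard error, and a difference in RNA per cell cannot be told apart from a difference in the number of cells that express a gene.

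Glucose enters most cells through the SLC2 family, membrane carriers that let sugar run down its gradient. GLUT1 (Slc2a1) serves basal uptake in many tissues, GLUT3 (Slc2a3) is best known from neurons, and GLUT4 (Slc2a4) moves from internal vesicles to the surface of muscle and fat cells when insulin is present. The SLC5 carriers SGLT1 (Slc5a1) and SGLT2 (Slc5a2) instead couple sugar to sodium and are known from the gut and the kidney tubule. In vascular smooth muscle GLUT1 is regarded as the main route of glucose entry.

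The deposited intensities had a median of 508 on each array. How they were normalized is not stated, so equal medians do not show that the hybridisations were alike. Intensities at or below 175, the 25th percentile, were set to that floor. A gene was counted as measured when its brightest probe set reached, as the mean of both arrays, the median brightness of all probe sets, an intensity of 507. By this filter 4 of the 9 transporter genes were measured, or 44.4%, beside 96 of 219 other solute carrier genes (43.8%) and 6114 of all 10411 genes (58.7%). Differences are log2 ratios of GLUT1 over control, after a scaling shift of -0.0014. Of 10 smooth muscle markers 7 were measured, with Acta2, the smooth muscle actin, at 16687 on the GLUT1 array and 16303 on the control array. Myh11, the smooth muscle myosin heavy chain, lay below the filter at 228 on the GLUT1 array and 227 on the control array. Lmod1 and Mylk were also below it. Of 6 endothelial markers none was measured, and of 6 leukocyte markers 1, Cd14.

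**Figure D1:**
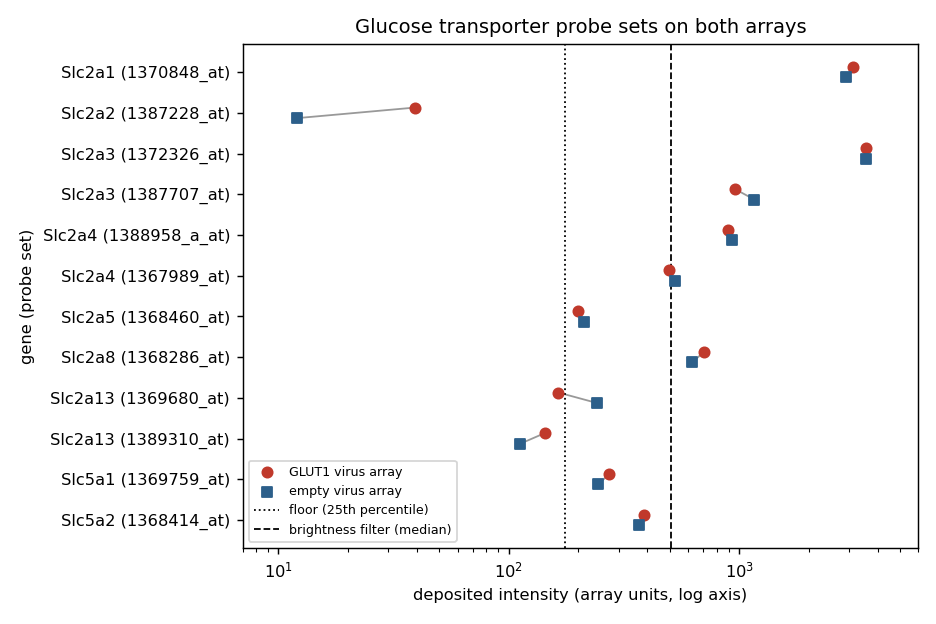
Deposited intensity of each of the 12 probe sets (log axis, array units) on the GLUT1 virus array (circles) and the empty virus array (squares), with the floor at 175 and the brightness filter at 507. Apart from Slc2a2 and Slc2a13, the points of each probe set lie close together, and 6 of the 12 probe sets have both points left of the filter.

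The upstream sequences of 3 transporter genes are given because they stand for different readings: Slc2a1, the rat counterpart of the gene carried by the virus, Slc2a8, the measured transporter with the highest ratio, and Slc2a2, which was at the floor on both arrays. RefSeq windows of the GRCr8 assembly, 250 bases before to 50 bases after the annotated start, matched 7 of the 9 genes. Slc2a3 and Slc2a4, both measured, had no window, so Slc2a1 and Slc2a8 are the only measured transporters covered. The windows shown are chr5:138002272-138002571 on the plus strand for Slc2a1, chr3:36682085-36682384 on the minus strand for Slc2a8 and chr2:113540120-113540419 on the plus strand for Slc2a2. Capitals mark every match, on either strand, to TATAAA, the core promoter box, to CCAAT, the box bound by NF-Y, to GGGCGG, the GC box bound by Sp1, and to ACGTG, the core of the hypoxia response element.
Slc2a1: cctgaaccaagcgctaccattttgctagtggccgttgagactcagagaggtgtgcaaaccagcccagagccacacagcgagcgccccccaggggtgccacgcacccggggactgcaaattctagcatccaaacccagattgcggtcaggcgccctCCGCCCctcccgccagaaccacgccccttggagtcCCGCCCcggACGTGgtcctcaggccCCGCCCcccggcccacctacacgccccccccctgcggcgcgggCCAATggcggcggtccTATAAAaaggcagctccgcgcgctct
Slc2a8: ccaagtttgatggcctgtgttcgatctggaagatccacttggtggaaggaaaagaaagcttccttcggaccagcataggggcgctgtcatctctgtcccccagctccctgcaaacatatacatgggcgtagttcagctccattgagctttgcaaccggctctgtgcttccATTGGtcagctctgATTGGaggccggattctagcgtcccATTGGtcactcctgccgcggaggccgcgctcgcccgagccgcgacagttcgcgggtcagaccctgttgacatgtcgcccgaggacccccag
Slc2a2: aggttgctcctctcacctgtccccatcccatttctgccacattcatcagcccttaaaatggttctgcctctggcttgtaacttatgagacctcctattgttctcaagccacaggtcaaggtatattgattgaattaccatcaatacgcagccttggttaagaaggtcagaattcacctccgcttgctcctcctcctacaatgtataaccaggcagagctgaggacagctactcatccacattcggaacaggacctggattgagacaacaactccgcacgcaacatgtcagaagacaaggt

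The Slc2a1 window held matches to all 4 motifs: 3 GC boxes between 95 and 35 bases before the start, 1 ACGTG, 1 CCAAT and 1 TATAAA, the last beginning 24 bases after the annotated start. Slc2a8 held 3 CCAAT matches, at 80, 66 and 41 bases before the start, and Slc2a2 held none of the 4. No 2 of these matches overlapped. Among all 33469 windows, 14.2% held TATAAA, 37.5% CCAAT, 33.1% GGGCGG and 19.3% ACGTG. The windows of Slc2a13, Slc2a1, Slc2a8 and Slc5a1 were rich in CpG dinucleotides, with 27, 25, 19 and 18, against a median of 7 over all windows. Slc2a5 held 9, Slc2a2 held 5 and Slc5a2 held 4. The Slc2a13 window, not shown, held 4 matches to GGGCGG, and that gene lay below the filter. A match describes letters in the window and not a site in use, and a link between matches and readings was not tested.

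**Figure D2:**
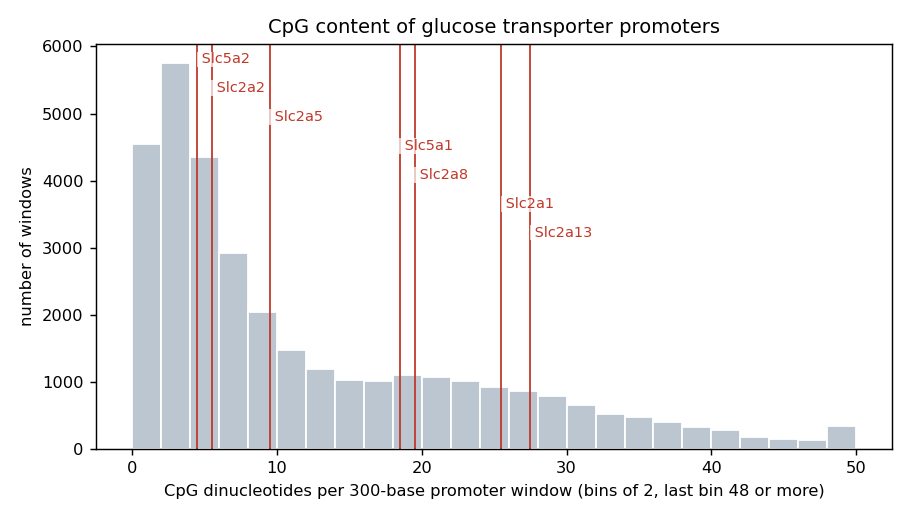
Number of CpG dinucleotides in the 300-base promoter windows of all 33469 entries (bars), with the 7 matched glucose transporter genes as vertical lines. Slc5a2, Slc2a2 and Slc2a5 lie at 4 to 9, and the other matched genes at 18 to 27.

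Slc2a1 and Slc2a3 gave the brightest readings of the family. Slc2a1 was read by 1 probe set at 3121 on the GLUT1 array and 2902 on the control array. This placed it at rank 1879 of 15866 gene probe sets on the GLUT1 array and 2047 on the control array. The GLUT1 array was higher by a log2 ratio of 0.11, a fold of 1.08. The 500 probe sets nearest in brightness had 5th and 95th percentiles of -0.18 and 0.17, so Slc2a1 lay inside their range, and 39.8% of all measured probe sets differed by at least as much. The move of 168 ranks compares with a median move of 123 ranks, in either direction, among probe sets of like brightness. The virus supplied a human cDNA, and the sources used here do not say whether the rat oligonucleotides or any rat untranslated sequence they target match it. The reading is therefore neither a measure of the transgene nor a check of the label. Per the labels, GLUT1 protein was examined by immunoblot when the RNA was taken.

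Slc2a3 was read by 2 probe sets that did not give the same picture. The brighter, 1372326_at, had 3548 and rank 1582 on the GLUT1 array, and 3546 and rank 1583 on the control array, a log2 ratio of 0.00. The dimmer, 1387707_at, had 958 and rank 5657 on the GLUT1 array, and 1164 and rank 4880 on the control array. Its log2 ratio of -0.28 put the GLUT1 array lower. That value lay outside the 5th and 95th percentiles of its 500 neighbours in brightness, -0.24 and 0.25, where it stood at percentile 2.6, and 5.82% of all measured probe sets lay at least as far from 0. It was the farthest from 0 of the 6 measured transporter probe sets. Averaged over both probe sets the log2 ratio of Slc2a3 was -0.14.

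Slc2a4 was also read by 2 probe sets, here close to each other. The brighter, 1388958_a_at, had 898 on the GLUT1 array and 928 on the control array, a log2 ratio of -0.05. The dimmer, 1367989_at, had 494 on the GLUT1 array and 526 on the control array, a log2 ratio of -0.09, just above the filter. Both were slightly lower on the GLUT1 array and well inside the ranges of their neighbours, -0.29 to 0.28 and -0.36 to 0.37. Slc2a4 is best known from striated muscle and fat. Of 10 markers of these tissues 9 lay below the filter, with 6 at the floor on both arrays. The exception was Myh1, a fast skeletal myosin heavy chain with close paralogues. The summed intensity of the list was 5155 on the GLUT1 array and 5795 on the control array, most of it from Myh1. Without Myh1 the sum was higher on the GLUT1 array, with every remaining marker below the filter. Myh1 was read at 3662 on the GLUT1 array and 4585 on the control array, a log2 ratio of -0.32. This was -3.61 local spreads, where the local spread is the scaled median absolute deviation of the neighbours in brightness. No other measured gene of the marker lists, or of the related lists below, differed by as many local spreads. The part of Myh1 in the Slc2a4 readings was not tested.

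**Figure D3:**
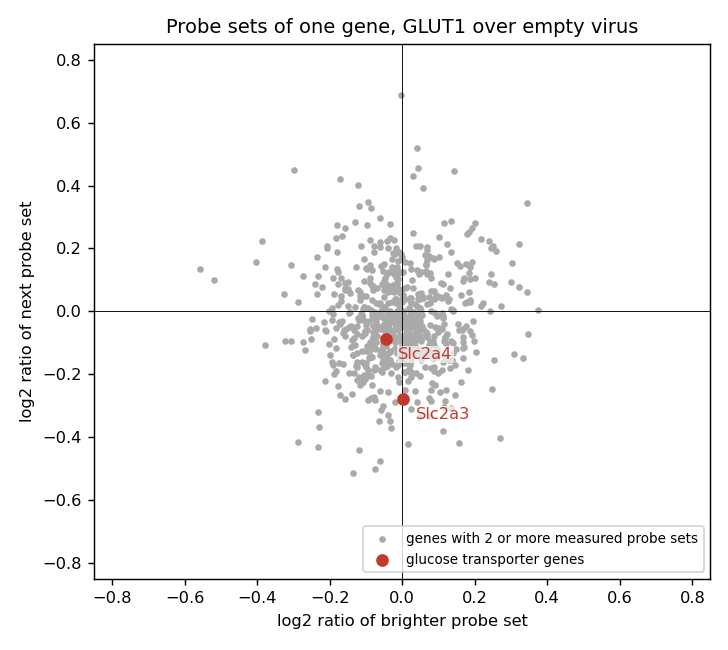
Log2 ratio, GLUT1 over empty virus, of the brightest measured probe set of a gene (x axis) against the next brightest (y axis) for 702 genes, with Slc2a3 and Slc2a4 marked. Slc2a4 lies near the centre, and Slc2a3 at 0.00 and -0.28.

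Across the 702 genes with at least 2 measured probe sets, the brightest pair differed in log2 ratio by a median of 0.12, and the 90th percentile was 0.31. The pair of Slc2a3 differed by 0.28, at percentile 86.8 of these genes, and the pair of Slc2a4 by 0.04, at percentile 18.6. The brighter Slc2a3 probe set was 3.36 times as bright as the dimmer on average over both arrays, where the median gene had a 1.72-fold gap. Probe sets of a gene can target different transcript ends, and where these lie is not used here.

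Slc2a8, which encodes GLUT8, a carrier that is kept mostly on internal membranes, had the highest ratio among measured transporters. It was read at 704 and rank 6774 on the GLUT1 array, and at 626 and rank 7204 on the control array, a log2 ratio of 0.17 and a fold of 1.13. Its 500 neighbours in brightness ran from -0.30 to 0.30 between the 5th and 95th percentiles, and 19.9% of all measured probe sets were at least as far from 0. Its move of 430 ranks compares with a median move of 304 among those neighbours. Slc2a8 stood at percentile 82.6 of their log2 ratios, and Slc2a1 at percentile 82.8 of those of its own neighbours. Against probe sets of like brightness, Slc2a8 was therefore no farther out than Slc2a1.

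The other 5 genes lay below the filter on both arrays. Slc2a2, the GLUT2 gene of liver, pancreatic islets and gut, was the dimmest, at 39 on the GLUT1 array and 12 on the control array. Both values are under the floor, so no ratio is given. Slc2a5, the fructose carrier GLUT5, was read at 200 on the GLUT1 array and 212 on the control array, just above the floor, with a log2 ratio of -0.08 where neighbours ran from -0.53 to 0.53.

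The sodium-coupled carriers were dim but above the floor. Slc5a1 was read at 272 on the GLUT1 array and 245 on the control array, a log2 ratio of 0.15, with neighbours from -0.60 to 0.67. Slc5a2 was read at 387 on the GLUT1 array and 369 on the control array, a log2 ratio of 0.07, with neighbours from -0.46 to 0.46. Both were slightly higher on the GLUT1 array and well inside those ranges. Of 10 markers of liver, gut and kidney epithelium none was measured, and 4, Apoa1, Umod, Slc34a1 and Aqp2, were at the floor on both arrays. Ttr was read at 464 on the GLUT1 array and 470 on the control array, and Cdh17 at 391 and 474. Both were brighter than Slc5a1 and Slc5a2. Lrp2, at 322 on the GLUT1 array and 255 on the control array, was brighter than Slc5a1 only. That list summed to 1945 on the GLUT1 array and 2053 on the control array.

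Slc2a13 encodes HMIT, which couples myo-inositol to protons and is grouped with the glucose carriers by sequence. Its probe set 1369680_at had 164 on the GLUT1 array, under the floor, and 242 on the control array. The floored log2 ratio was -0.47, at percentile 9.4 of neighbours that ran from -0.53 to 0.52, and it depends on where the floor is set. Its second probe set, 1389310_at, pointed the other way, at 143 on the GLUT1 array and 112 on the control array, both under the floor. For this gene the arrays gave no direction.

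**Figure D4:**
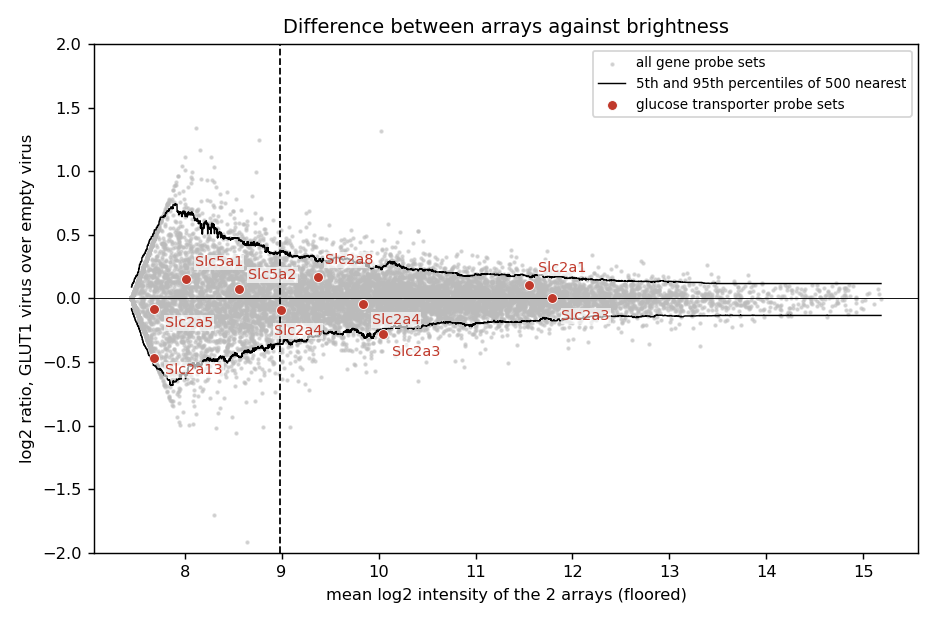
Log2 ratio, GLUT1 over empty virus, against mean log2 intensity for all gene probe sets (grey), with the 10 transporter probe sets above the floor on at least 1 array in red, the 5th and 95th percentiles of the 500 nearest probe sets as lines and the filter dashed. The dimmer Slc2a3 probe set lies below the lower line, and the other 9 lie between the lines.

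None of the 4 measured transporter genes was higher or lower by 2-fold, a threshold that 0.0164% of all measured genes passed upward and 0.0% downward. None passed 1.5-fold, which 0.0654% of measured genes passed in each direction, or 1.2-fold, which 3.7% passed upward and 2.72% downward. These counts take each gene by its brightest probe set. The dimmer Slc2a3 probe set, at a fold of 0.82, was lower by more than 1.2-fold. With so few genes past these sizes, a count of 0 among 4 is near the background. The 4 had log2 ratios from -0.05 to 0.17, with a median of 0.05 where that of all measured genes was 0.01. Of the 12 probe sets, 7 had the higher deposited intensity on the GLUT1 array and 5 on the control array. The 7 include Slc2a2 and the Slc2a13 probe set 1389310_at, which were under the floor on both arrays. The brighter Slc2a3 probe set, at 3548 on the GLUT1 array and 3546 on the control array, is also among them. This split therefore gives no direction for the family. Taken by their brightest probe sets, the genes ranked among 10411 genes at 1282 for Slc2a3 on each array, at 1530 on the GLUT1 array and 1657 on the control array for Slc2a1, and at 4694 on the GLUT1 array and 4585 on the control array for Slc2a4. Slc2a8 ranked 5330 on the GLUT1 array and 5614 on the control array. The order of the 4 measured genes was the same on both arrays. A rank is of brightness, which depends on the oligonucleotides as well as the transcript, so it does not order the mRNAs by amount.

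Genes that carry, place or use glucose transporters were read in 7 lists of 97 genes, of which 71 had a usable probe set and 45 were measured. None of the 45 was higher or lower by 2-fold. Of 15 other SLC2 and SLC5 genes listed, only 3 had a usable probe set, so the rest were not read at all. Of these 3 only Slc5a6, the sodium-dependent vitamin carrier, was measured, at 2538 on the GLUT1 array and 2156 on the control array. Its log2 ratio of 0.24 was 2.30 local spreads above 0, where the local spread is the scaled median absolute deviation of the 500 probe sets nearest in brightness. The iodide carrier gene Slc5a5 and the choline carrier gene Slc5a7 lay below the filter.

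Of 18 measured genes of GLUT4 vesicle traffic, 5 had a ratio above and 13 below 0, with a median of -0.02 on the log2 scale. Of all 6114 measured genes, 3193 were above and 2921 below 0, with a median of 0.01. Tbc1d1, a Rab GTPase-activating protein that holds back the vesicles, was read at 1813 on the GLUT1 array and 1571 on the control array, a log2 ratio of 0.21, and Myo1c, a motor at the cell surface, had 0.05. At the lower end Rab10, the GTPase of vesicle delivery, was read at 5462 on the GLUT1 array and 6240 on the control array, a log2 ratio of -0.19, or -2.05 local spreads. Lrp1, a vesicle cargo receptor, had -0.16.

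Genes that keep GLUT1 at the surface or remove it had a median of -0.07 over 6 measured members, 3 above and 3 below 0. Snx27, the sorting nexin that returns GLUT1 from endosomes, was read at 625 on the GLUT1 array and 747 on the control array, a log2 ratio of -0.26, or -1.46 local spreads. Stom, encoding the GLUT1-binding membrane protein stomatin, had -0.15, while Gipc1, whose product binds the tail of GLUT1, had 0.07 and the retromer gene Vps26a 0.05. The other retromer genes differed, with Vps35 at -0.14, or -1.58 local spreads, and Vps29 at 0.01. Txnip, the arrestin-like protein that draws GLUT1 into the cell, lay below the filter.

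Insulin and AMPK signalling genes had a median of -0.08 over 9 measured members, 4 above and 5 below 0. Ptpn1, the phosphatase that switches off the insulin receptor, was read at 857 on the GLUT1 array and 681 on the control array, a log2 ratio of 0.33, the highest ratio of the 45 genes. In local spreads it stood at 1.95, below the 2.30 of Slc5a6. Inppl1, a lipid phosphatase of the same pathway, had 0.09. Prkaa1, a catalytic subunit of AMPK, had -0.23, and the receptor gene Igf1r -0.14.

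Among 5 measured transcription factors of transporter genes the median was 0.02, 4 above and 1 below 0. Myc had a log2 ratio of 0.17 and Mef2c, an activator of Slc2a4, 0.04. Sp1, a factor that binds GC boxes, was read at 2939 on the GLUT1 array and 2909 on the control array, a log2 ratio of 0.02. Whether it binds the matches capitalised in the Slc2a1 window was not tested. Hif1a, the hypoxia factor, was read at 7870 on the GLUT1 array and 8607 on the control array, a log2 ratio of -0.13. Of the genes behind the sodium gradient and SGLT function 3 were measured, with a median of 0.02: the kinase gene Sgk1 had 0.19 and the sodium pump beta subunits Atp1b3 and Atp1b1 had 0.02 and -0.04. Of the genes that phosphorylate glucose or reverse that step, Hk1 had 0.20, the phosphatase gene G6pc3 0.10 and Hk2 -0.02.

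**Figure D5:**
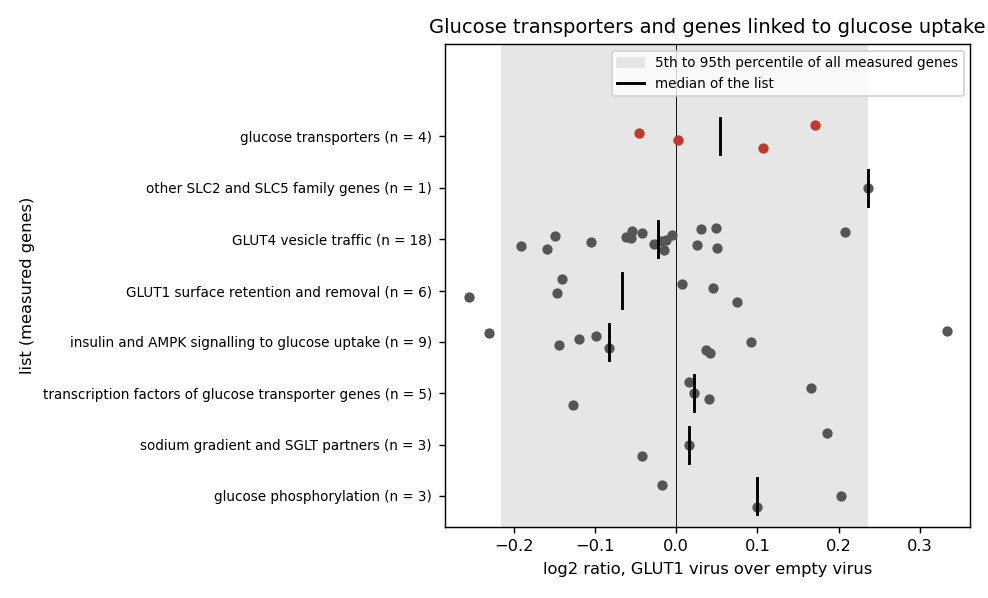
Log2 ratio, GLUT1 over empty virus, of each measured gene (points) in the transporter group and 7 related lists, with list medians as black bars and the 5th to 95th percentile of all measured genes, -0.21 to 0.23, shaded. The 4 transporters lie inside the shaded range, and the points outside it are Ptpn1 and Slc5a6 above and Snx27 and Prkaa1 below.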

How the data were processed

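A7r5 RNA was turned into biotin-labelled cRNA per the labels, 5 µg of total RNA per pool, and hybridised to 1 array per group. The authors deposited linear intensity values of 15923 probe sets, 57 of them controls, as whole numbers with equal medians on both arrays. How they were summarised, background-corrected and normalized is not given in the sources used, and detection calls are not used here. The number of arrays limits the precision.

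Gene names came from the platform annotation, and of the 12783 probe sets with a single gene, 12748 had their gene ID in the current RefSeq table (GRCr8), from which the symbol was taken. The GLUT1 array was scaled to a median log2 ratio of 0 over probe sets at or above the median brightness, values were floored at the 25th percentile, and a gene was taken by its brightest probe set. Local ranges used the 500 probe sets nearest in brightness. Genes named were the 9 transporters and, per list, the 2 highest and 2 lowest measured genes, and the markers and others named beyond this were chosen after their values were seen. Members and lists were chosen with earlier results of these data known. Alternatives covered scaling, floor, filter, probe set averaging and fold. The steps were tested on simulated data (Python 3.11.15, numpy 2.4.6, pandas 2.3.3).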

Additional observations from a re-analysis of the deposited data

How the results depend on the processing

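No paired analysis was possible because there is a lone array on each side. The log2 ratio of Slc2a1 stayed between 0.10 and 0.11 and that of Slc2a8 at 0.17 in every setting where they were measured, but each is read by 1 probe set well above the floors, so floor and averaging could not move them. Averaging probe sets moved Slc2a3 to -0.14. The dim Slc2a13 ran from -0.56 to 0.00 with the floor and the averaging. With no brightness filter 9 transporter genes counted as measured, and 2 did when the filter was set at the 75th percentile. No measured transporter gene was higher or lower by 2-fold in any of these settings. By its brightest probe set, none was higher or lower by 1.5-fold or 1.2-fold in the setting reported. The dimmer Slc2a3 probe set was lower by more than 1.2-fold. Of all measured genes, 1 higher and 0 lower by 2-fold became 5 higher and 4 lower with no filter. The stricter filter left 0 higher, and the 40th percentile as floor gave 1 lower. At 1.5-fold the counts were 4 higher and 4 lower, and at 1.2-fold 226 higher and 166 lower.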
